A study of Homo sapiens with 12 samples.

Results

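The genes considered here were the hypoxia-inducible factors (HIFs), the enzymes that sense oxygen for them, and genes known as their targets, measured on bead arrays in the neuroblastoma line SK-N-SH. The list held 37 genes, namely 3 HIF subunits, the 4 HIF hydroxylases with VHL, and 29 target genes. Members were found by their gene symbol in the platform table, and 36 of the 37 had a probe, out of 20046 genes with a probe in all. CA9, a carbonic anhydrase and a common marker of HIF activity, had none. A total of 34 members, among them 26 targets, were detected on at least 1 array and tested, out of 12093 genes tested. PDK1, a kinase that restrains pyruvate dehydrogenase, and BHLHE41, a transcriptional repressor, had probes that passed on no array. Members are ordered by their role below.

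There were 4 groups of 3 arrays each. DoxR-v was the doxorubicin-resistant line that was exposed to vorinostat (SAHA), a histone deacetylase inhibitor, from time to time during selection. DoxR was the line selected in stepwise doxorubicin alone, WT-v was the parental line given vorinostat in parallel with it, and WT was the parental line. All groups were SK-N-SH cells grown in the same medium with serum, each group was 1 line, selection ran over months, and the sources used here name no hypoxic culture for any of them. The RNA was described as triplicate specimens of each line, and nothing states that these were separate cultures, so that the p-values below measure the spread between specimens, which may be technical.

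In cells with enough oxygen, the hydroxylases EGLN1, EGLN2 and EGLN3 mark the HIF alpha subunits, VHL then binds them, and they are degraded. A further hydroxylase, HIF1AN, blocks their contact with coactivators. When oxygen is short, the alpha subunit persists, pairs with ARNT and binds a short DNA motif near genes for glucose uptake, glycolysis, blood vessel growth, mitophagy and collagen processing. Alpha subunits are thus set largely at the level of protein, which arrays do not measure. In the sympathetic lineage from which neuroblastoma arises, EPAS1 (HIF-2 alpha) is known for its part in the development of chromaffin and sympathoadrenal cells.

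The core of the DNA motif bound by the HIFs is ACGTG or GCGTG. Promoter windows from 250 bases before to 50 bases after a gene start, as RefSeq gives them for GRCh38.p14, were searched on both strands, with the palindrome CACGTG counted once on each strand. At least 1 of the cores lay in 31 of 34 windows of 24 of the 29 target genes (91.2%), against 48.4% of all 35116 windows. Windows of the targets SLC2A3, VEGFA, STC1, BNIP3L and NDRG1 were not counted, being either unmatched or left out. The target shares given here therefore do not cover these genes, several of which were called in the comparisons below. ACGTG alone was in 19 target windows (55.9%), against 21.4% of all windows, and CACGTG was in 23.5% of target windows, against 7.26% of all. Among the 9 windows of 7 subunits and sensors, 4 held a core (44.4%), and no window of VHL was counted. A gene may have several windows, and a match describes the letters in a window, not a site in use. The windows shown are those of EPAS1, the subunit that differed most among the lines, of ANKRD37, which was lower in both resistant lines, and of BHLHE40, ANGPTL4 and BNIP3, which were lower in WT-v but not in DoxR-v. Cores on either strand are in capitals, and a core on the opposite strand is therefore read as CACGT or CACGC.
EPAS1 (chr2:46297157-46297456, + strand): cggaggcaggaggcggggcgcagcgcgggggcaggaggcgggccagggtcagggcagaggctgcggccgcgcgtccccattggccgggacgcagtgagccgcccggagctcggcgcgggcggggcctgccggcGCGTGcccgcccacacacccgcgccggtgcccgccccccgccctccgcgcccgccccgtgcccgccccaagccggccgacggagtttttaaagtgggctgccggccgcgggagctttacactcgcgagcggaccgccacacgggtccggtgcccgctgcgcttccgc
ANKRD37 (chr4:185396591-185396890, + strand): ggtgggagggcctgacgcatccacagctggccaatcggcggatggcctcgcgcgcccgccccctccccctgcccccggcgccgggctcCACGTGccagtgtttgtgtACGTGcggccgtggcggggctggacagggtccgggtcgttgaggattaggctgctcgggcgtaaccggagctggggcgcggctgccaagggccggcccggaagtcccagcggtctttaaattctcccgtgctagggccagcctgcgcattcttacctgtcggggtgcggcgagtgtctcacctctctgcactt
BHLHE40 (chr3:4979187-4979486, + strand): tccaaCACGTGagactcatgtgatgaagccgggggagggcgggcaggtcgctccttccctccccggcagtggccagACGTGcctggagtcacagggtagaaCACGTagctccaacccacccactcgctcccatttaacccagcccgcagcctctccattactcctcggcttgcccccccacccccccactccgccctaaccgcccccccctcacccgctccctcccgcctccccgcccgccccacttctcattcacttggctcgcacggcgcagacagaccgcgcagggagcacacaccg
ANGPTL4 (chr19:8363905-8364204, + strand): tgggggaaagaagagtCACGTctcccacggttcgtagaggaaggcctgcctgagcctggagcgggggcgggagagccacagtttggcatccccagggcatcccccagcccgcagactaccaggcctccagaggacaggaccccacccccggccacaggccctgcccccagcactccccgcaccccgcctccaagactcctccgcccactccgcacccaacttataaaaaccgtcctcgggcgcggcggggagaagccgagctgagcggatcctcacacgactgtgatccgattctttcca
BNIP3 (chr10:131981874-131982173, - strand): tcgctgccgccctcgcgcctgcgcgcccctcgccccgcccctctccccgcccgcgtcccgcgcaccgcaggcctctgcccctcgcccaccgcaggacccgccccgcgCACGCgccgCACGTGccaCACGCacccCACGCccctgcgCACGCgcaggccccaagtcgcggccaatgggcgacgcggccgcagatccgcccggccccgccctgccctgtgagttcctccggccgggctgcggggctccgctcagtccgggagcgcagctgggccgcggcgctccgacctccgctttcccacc
The EPAS1 window held 1 core and the ANGPTL4 window 1, while that of ANKRD37 held 3, that of BHLHE40 held 4 and that of BNIP3 held 6.

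Levels are given as log2 intensity after background correction and quantile normalization, listed for replicates 1, 2 and 3. Differences are log2 differences ± SE, and a gene counted as called where limma gave a fold change above 1.5 with an adjusted p below 0.1, the adjustment running over all 21609 tested probes. Each array detected 14969 to 17220 probes, and arrays of a group correlated at r = 0.982 to 0.992, against 0.936 to 0.971 between groups. The lines also differed in markers of neuroblastoma cell state. All 11 adrenergic markers tested were detected on each DoxR-v, WT-v and WT array, with a summed linear intensity of 47900 to 55100 in DoxR-v, 37000 to 38200 in DoxR, 54000 to 57300 in WT-v and 44300 to 50500 in WT. TH, which makes the precursor of catecholamines, was detected on no DoxR array (13.18, 13.13 and 12.92 in DoxR-v, 4.47, 4.53 and 4.59 in DoxR, 13.11, 12.98 and 13.23 in WT-v and 7.45, 8.04 and 7.70 in WT), and the other 10 markers were detected there on all 3. In DoxR-v relative to WT, 4 of the 11 lay above and 7 below (median log2 difference -0.04). ELAVL4 and TH were called higher there and HAND2 lower. In DoxR 4 lay above and 7 below (-0.33), with ELAVL4 and PHOX2A called higher and DBH, GAP43, HAND2 and TH lower. In WT-v 7 lay above and 4 below (0.23), with ELAVL4, GAP43 and TH called higher and DBH lower. The summed ranges of DoxR-v and WT overlapped, and bright markers weigh most in such a sum. The mesenchymal marker VIM, an intermediate filament, was highest in DoxR (11.60, 11.14 and 11.06 in DoxR-v, 13.09, 13.20 and 12.99 in DoxR, 11.74, 11.50 and 11.75 in WT-v and 8.91, 9.12 and 9.12 in WT). Of 10 mesenchymal markers 6 were tested, with a summed intensity of 3740 to 5350 in DoxR-v, 10500 to 11600 in DoxR, 3430 to 3980 in WT-v and 852 to 960 in WT. This sum rests mostly on VIM. Relative to WT, CD44 and VIM were called higher and SNAI2 lower in DoxR-v. In DoxR, CD44, COL3A1, SNAI2 and VIM were called higher and none lower, and in WT-v COL1A1, COL3A1, SNAI2 and VIM higher and CD44 lower. COL1A1 and COL3A1 were detected on no DoxR-v or WT array, COL1A1 on no DoxR array, PRRX1 on no DoxR-v, DoxR or WT-v array and CD44 on no WT-v array. Only CD14 of the leukocyte list and EPCAM of the epithelial list were tested, and none of the endothelial, erythroid or Schwann lists was. The part of these differences in cell state in the values below was not tested.

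One WT array stood apart over the HIF targets. WT replicate 1 was the highest WT array for 21 of the 26 targets, against 29.7% of all genes, and lay a median of 0.427 above its group mean over the targets, against -0.00812 over all genes. WT replicate 2 and WT replicate 3 lay at -0.244 and -0.199. DoxR-v replicate 2 was the highest array of its group for 18 targets (32.6% of all genes) and WT-v replicate 2 for 15 (39.7% of all genes), with medians of 0.114 and 0.142. All 3 comparisons with WT share the WT arrays, and so do the values drawn against them. Counts are therefore also given without WT replicate 1.

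**Figure D1:**
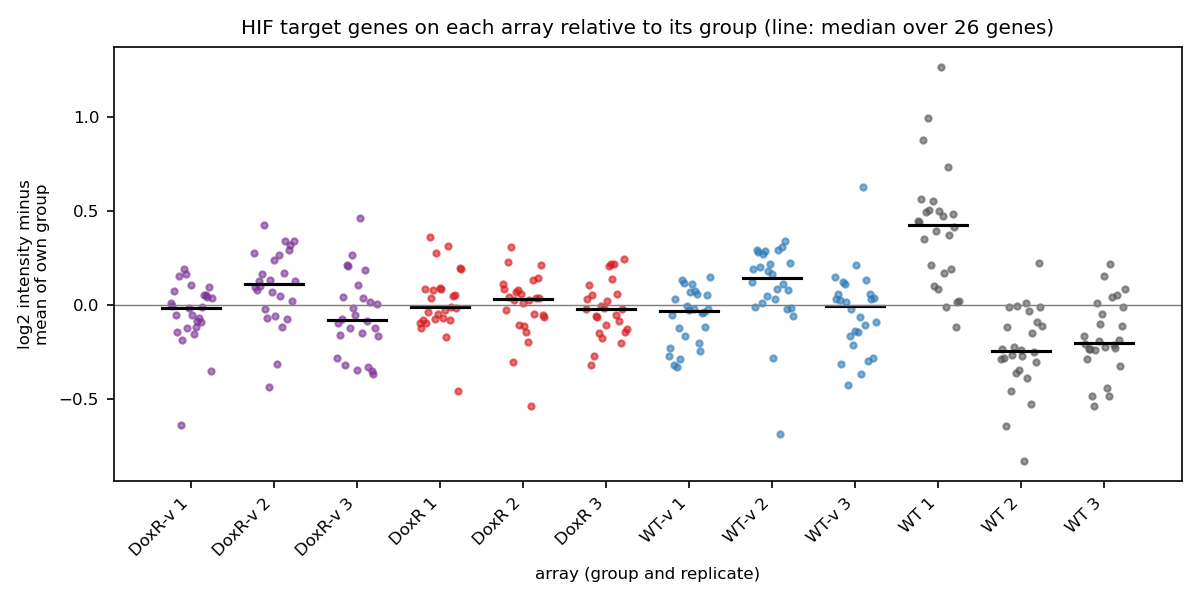
Each point is 1 of 26 HIF target genes on 1 array, as log2 intensity minus the mean of its own group, with arrays along the horizontal axis and a black line at the median. The points of WT replicate 1 sit mostly above 0, with a median of 0.427, while the medians of the other 11 arrays lie between -0.244 and 0.142.

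Relative to WT, the 26 listed HIF targets were more often called lower than higher in all 3 lines. In DoxR-v cells 4 targets were higher and 11 lower, in DoxR cells 2 were higher and 12 lower, and in WT-v cells 1 was higher and 12 lower, of 26 tested. The 1 higher target in WT-v was LOX, whose probe was below detection in both groups. WT was the group with the highest level for 12 of the 26 targets (24.2% of all genes) and with the lowest level for 2 (27.6% of all genes). DoxR-v held the lowest level for 10 targets (22.1% of all genes) and WT-v for 9 (22% of all genes). Over the 34 members with subunits and sensors, 6 were higher and 11 lower in DoxR-v than in WT, where 24.4% of all genes were called (12.6% higher and 11.8% lower). In DoxR 3 were higher and 12 lower, beside 33.1% of all genes called (17.1% higher, the others lower). In WT-v 3 were higher and 13 lower, beside 26.3% of all genes called (14.0% and 12.3%). The median log2 difference of the members was -0.29 in DoxR-v, -0.16 in DoxR and -0.40 in WT-v, beside 0.02, 0.01 and 0.03 over all genes tested.

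**Figure D2:**
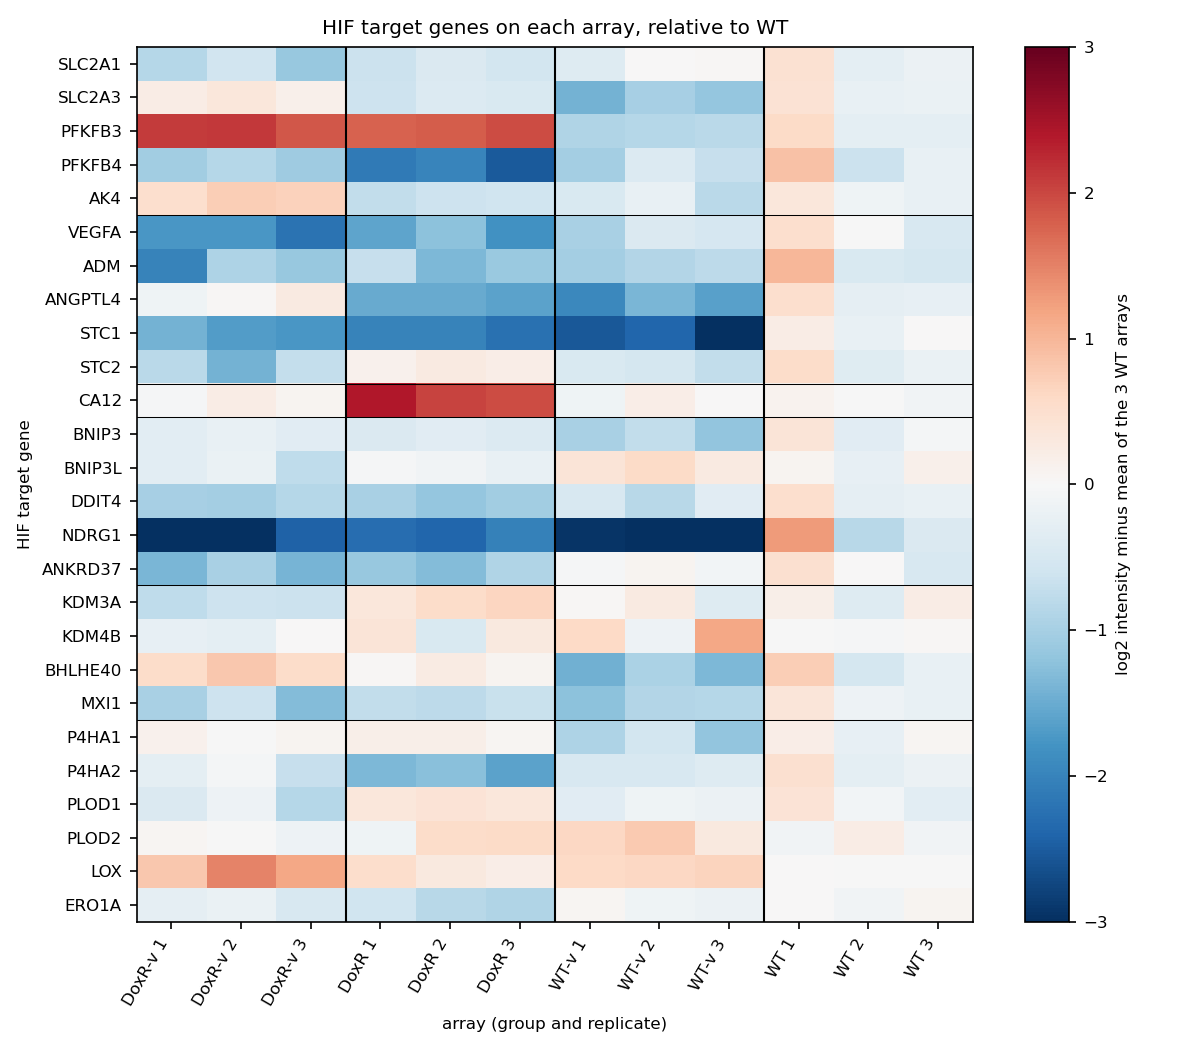
Colour gives the log2 intensity of each of 26 HIF target genes on each of the 12 arrays minus the mean of the 3 WT arrays, with red for higher and blue for lower, and black lines part the groups and the classes of target. NDRG1 and STC1 are lower on all arrays of DoxR-v, DoxR and WT-v, PFKFB3 is higher on all DoxR-v and DoxR arrays, and WT replicate 1 is red for most genes.

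Without WT replicate 1 the counts of members higher and lower were 7 and 10 in DoxR-v, 4 and 9 in DoxR, and 4 and 9 in WT-v. Scaling each array to one median in place of quantile normalization raised the median of all probes by 0.261 in DoxR-v, 0.131 in DoxR and 0.244 in WT-v, and then 9 members were higher and 6 lower in DoxR-v, 5 and 9 in DoxR, and 7 and 7 in WT-v. The median of the members less that of all probes was -0.205, -0.0117 and -0.256 under that scaling. No call of a member changed direction under any setting tried. Calls that held both with scaling to the median and with each array left out in turn numbered 9 of 17 in DoxR-v, 10 of 15 in DoxR and 9 of 16 in WT-v. The shares of all genes called that are given above are those with quantile normalization and all 12 arrays. Shares under the other settings are not given in this report, so that counts under them have no such comparison. With the normalized intensities that the authors deposited, 8, 8 and 7 members were called in the 3 comparisons. Those were EPAS1, SLC2A1, PFKFB3, VEGFA, STC1, STC2, DDIT4 and NDRG1 in DoxR-v, PFKFB3, PFKFB4, VEGFA, ANGPTL4, STC1, DDIT4, NDRG1 and P4HA2 in DoxR, and HIF1A, SLC2A3, ANGPTL4, STC1, BNIP3, NDRG1 and P4HA1 in WT-v, each in the direction given below. The groups did not overlap for 20, 22 and 20 of the 34 members, against 46.2%, 56.1% and 45.2% of all genes. Whole chromosomes also differed in level between the lines. Among genes with a mean level above 7, the 267 of chromosome 10, where PFKFB3, BNIP3, DDIT4, MXI1 and P4HA1 lie, had a median difference from WT of 0.165 in DoxR-v, 0.27 in DoxR and -0.258 in WT-v, and of 0.416 between DoxR-v and WT-v. The 324 genes of chromosome 6, where VEGFA lies, had medians of -0.385 in DoxR-v and -0.31 in DoxR relative to WT and -0.421 in DoxR-v relative to WT-v, and the 241 genes of chromosome 4, where ANKRD37 lies, -0.301 in DoxR-v relative to WT. Between DoxR-v and DoxR the median was -0.493 on chromosome 8, where NDRG1, STC1 and BNIP3L lie. It was -0.303 on chromosome 5, where STC2, P4HA2 and LOX lie. The part of these shifts in the members' values was not tested.

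**Figure D3:**
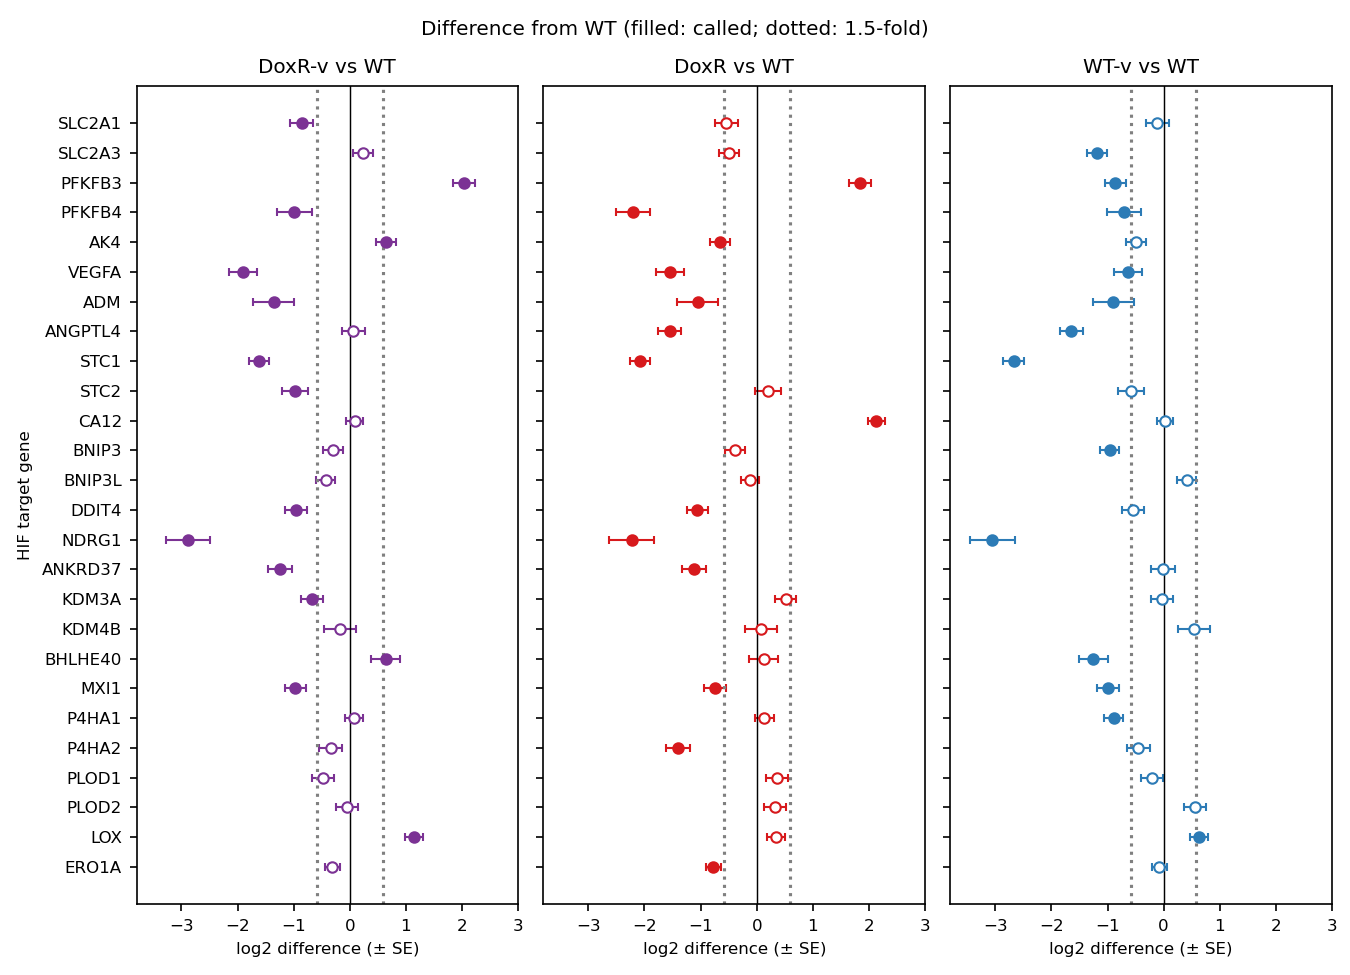
Points give the log2 difference from WT of each of 26 HIF target genes in DoxR-v, DoxR and WT-v, with bars for the SE of the limma fit over 3 arrays per group, and filled points were called. Of the filled points, 11, 12 and 12 lie below 0 and 4, 2 and 1 above.

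Among the subunits, EPAS1 and HIF1A were higher in both lines exposed to vorinostat than in WT, and neither was called in DoxR. EPAS1 encodes HIF-2 alpha and measured 8.80, 9.63 and 8.63 in DoxR-v, 7.09, 7.17 and 6.79 in DoxR, 7.98, 8.18 and 8.31 in WT-v and 7.88, 6.54 and 7.18 in WT. All DoxR-v arrays lay above all arrays of the other groups, and the DoxR and WT arrays overlapped. EPAS1 was 3.52-fold higher in DoxR-v than in WT (log2 difference 1.82 ± 0.30, adjusted p = 0.000611) and 4-fold higher in DoxR-v than in DoxR (2.00 ± 0.30). The gene was also higher in WT-v than in WT (0.95 ± 0.30, adjusted p = 0.0274) and in DoxR-v than in WT-v (0.86 ± 0.30, adjusted p = 0.0461), while DoxR and WT differed by -0.18 ± 0.30. The WT-v call was lost without WT replicate 2 (0.62), and the call between DoxR-v and WT-v without WT-v replicate 1 (0.78) or DoxR-v replicate 2 (0.56). EPAS1 was among the genes that the study selected from these same arrays, so that its values here are no independent evidence of its direction. The study listed EPAS1 as changed in DoxR-v cells of this line and another, but not in DoxR or WT-v, and also measured it by qRT-PCR. The WT-v call given here differs from that list, and it was absent with the deposited normalized values.

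HIF1A encodes HIF-1 alpha, the subunit present in most tissues. Its brightest probe measured 9.29, 9.12 and 8.87 in DoxR-v, 8.78, 8.41 and 8.39 in DoxR, 9.59, 9.34 and 9.27 in WT-v and 8.36, 8.05 and 8.86 in WT. The WT-v arrays lay above all WT arrays, and so did the DoxR-v arrays, though DoxR-v replicate 3 did so by a narrow margin. HIF1A was higher in WT-v (0.98 ± 0.20, adjusted p = 0.00234) and in DoxR-v (0.67 ± 0.20, adjusted p = 0.0221) than in WT, and DoxR differed from WT by 0.10 ± 0.20. The DoxR-v call was lost without WT replicate 2 (0.48) or DoxR-v replicate 1 (0.57), and HIF1A was called against DoxR without DoxR replicate 1 (0.69) or DoxR-v replicate 3 (0.68), beside 0.56 ± 0.20 with all arrays. Of the 3 probes of the gene, a second was also called higher in WT-v (0.70) and DoxR-v (0.61), whereas the third differed by -0.01 in WT-v and 0.47 in DoxR-v and was not called. HIF1A lies on chromosome 14, whose 258 genes with a mean level above 7 had a median difference of 0.331 in DoxR-v and 0.128 in WT-v relative to WT (GRCh38.p14). Between DoxR-v and DoxR that median was 0.413, and the part of these shifts in the HIF1A values was not tested.

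ARNT, the partner that both alpha subunits need, was near the limit of detection, with 4.70, 5.71 and 5.25 in DoxR-v, 5.96, 6.10 and 5.71 in DoxR, 5.94, 5.62 and 5.65 in WT-v and 5.67, 5.07 and 5.25 in WT. It was detected on 1 DoxR-v array, 3 DoxR arrays, 3 WT-v arrays and 1 WT array. The group of DoxR arrays lay above the WT arrays, and the DoxR-v arrays spread most. ARNT was called higher in DoxR than in WT (0.59 ± 0.23, adjusted p = 0.0555) and lower in DoxR-v than in DoxR (-0.70 ± 0.23), whereas DoxR-v and WT differed by -0.11 ± 0.23. Of these, the first was lost without WT replicate 2 (0.47), WT replicate 3 (0.56), DoxR replicate 1 (0.57) or DoxR replicate 2 (0.51), and the second without DoxR replicate 2 (-0.62) or DoxR-v replicate 1 (-0.44). Calls were gained in WT-v relative to WT without WT replicate 1 (0.59, beside 0.41 with all arrays) and in DoxR-v relative to WT-v without DoxR-v replicate 2 (-0.75, beside -0.52).

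**Figure D4:**
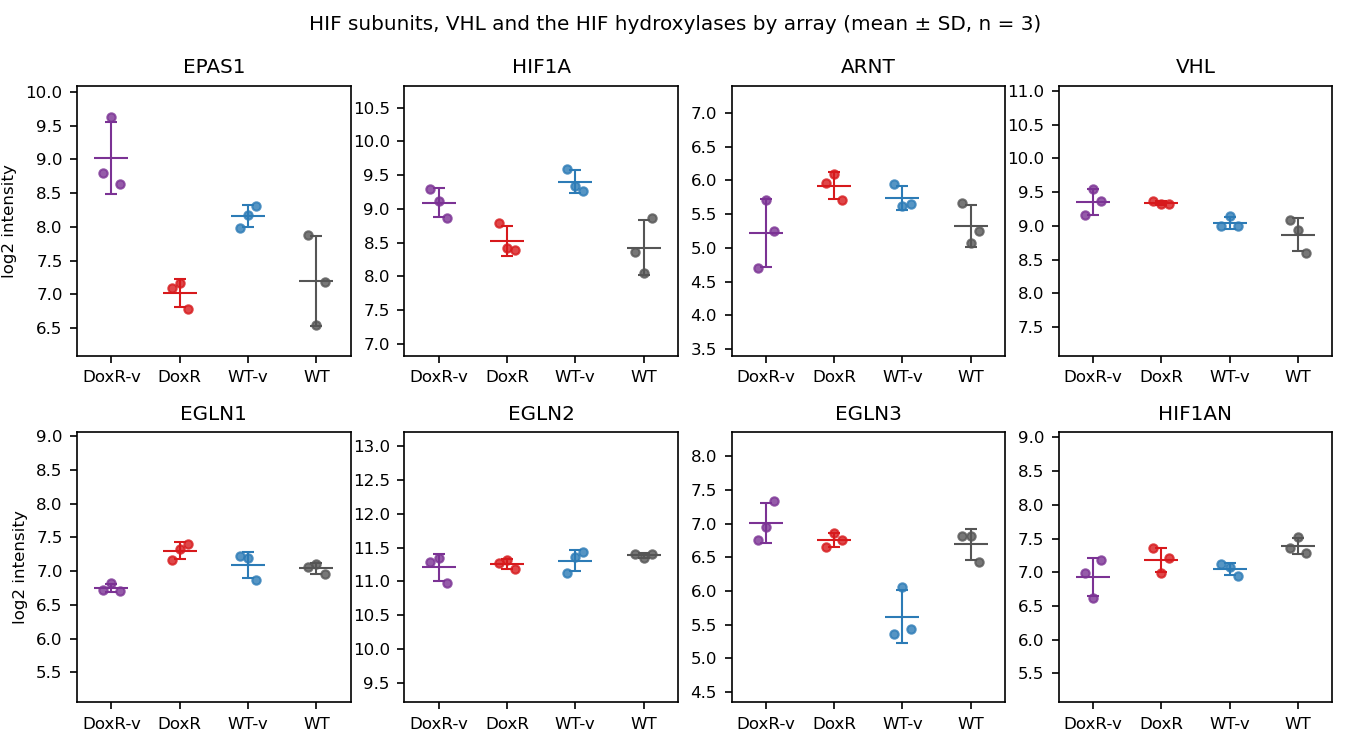
Log2 intensity of 3 HIF subunits, VHL and the 4 HIF hydroxylases is shown on each array, with points for the 3 arrays of a group, the group mean and its SD, and all panels span 4 log2 units. EPAS1 is highest in DoxR-v (mean 9.02), EGLN3 is lowest in WT-v (mean 5.62), and EGLN2 lies between 10.98 and 11.43 throughout.

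Of the hydroxylases and VHL, only EGLN3 was called relative to WT, and only in WT-v. EGLN3, a prolyl hydroxylase that is itself induced by HIF, measured 6.75, 6.95 and 7.34 in DoxR-v, 6.65, 6.86 and 6.75 in DoxR, 5.36, 6.07 and 5.44 in WT-v and 6.82, 6.82 and 6.43 in WT. The WT-v arrays lay below all other arrays. EGLN3 was 2.1-fold lower in WT-v than in WT (-1.07 ± 0.20, adjusted p = 0.00142) and 2.62-fold higher in DoxR-v than in WT-v (1.39 ± 0.20, adjusted p = 0.000214). EGLN1, the main prolyl hydroxylase in most cells, measured 6.72, 6.82 and 6.70 in DoxR-v, 7.16, 7.33 and 7.41 in DoxR, 7.22, 7.19 and 6.88 in WT-v and 7.06, 7.11 and 6.95 in WT. The DoxR-v arrays were the lowest and lay below all other arrays, with a difference from DoxR of -0.55 ± 0.13 that was under the fold threshold and was called without DoxR replicate 1 (-0.62) or DoxR-v replicate 2 (-0.59). EGLN2 was bright and stable, with 11.29, 11.35 and 10.98 in DoxR-v, 11.27, 11.31 and 11.18 in DoxR, 11.13, 11.36 and 11.43 in WT-v and 11.40, 11.34 and 11.41 in WT. The WT arrays lay narrowly above the DoxR arrays and the other groups overlapped, and its differences from WT ran from -0.18 in DoxR-v to -0.08 in WT-v.

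VHL, which recognizes hydroxylated HIF alpha, measured 9.16, 9.55 and 9.37 in DoxR-v, 9.37, 9.32 and 9.33 in DoxR, 9.0, 9.15 and 8.99 in WT-v and 9.08, 8.94 and 8.60 in WT. These values are from the brightest of its 3 tested probes. On it all arrays of both resistant lines lay above all WT arrays, yet the differences from WT of 0.48 ± 0.15 in DoxR-v (adjusted p = 0.0233) and 0.47 ± 0.15 in DoxR (adjusted p = 0.0216) stayed under a fold change of 1.5. In DoxR-v VHL was called without WT replicate 1 (0.59) or DoxR-v replicate 1 (0.59), and it was called in both lines with scaling to the median (0.92 in DoxR-v and 0.74 in DoxR). On the other probes of VHL the resistant lines overlapped WT. One of them measured 6.98, 7.27 and 7.38 in DoxR-v, 7.01, 7.37 and 7.23 in DoxR and 7.53, 7.44 and 6.24 in WT. The other measured 6.35, 6.87 and 6.17 in DoxR-v, 6.86, 6.70 and 6.32 in DoxR and 6.62, 5.99 and 6.14 in WT. HIF1AN, the asparaginyl hydroxylase, measured 6.99, 6.62 and 7.18 in DoxR-v, 7.35, 6.99 and 7.21 in DoxR, 7.12, 7.07 and 6.95 in WT-v and 7.36, 7.52 and 7.29 in WT. DoxR-v lay below WT on all arrays, with a difference of -0.46 ± 0.16 (adjusted p = 0.0393) that was again under the fold threshold.

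Genes for glucose uptake and energy moved in different directions. PFKFB3 and PFKFB4 make and break the metabolite that drives phosphofructokinase. PFKFB3 measured 9.66, 9.67 and 9.43 in DoxR-v, 9.32, 9.37 and 9.50 in DoxR, 6.64, 6.69 and 6.76 in WT-v and 8.12, 7.27 and 7.27 in WT. Both resistant lines lay above WT on all arrays, and all WT-v arrays lay below WT. PFKFB3 was 4.08-fold higher in DoxR-v (2.03 ± 0.19, adjusted p = 6.59e-06), 3.58-fold higher in DoxR (1.84 ± 0.19, adjusted p = 8.2e-06) and 1.81-fold lower in WT-v (-0.86 ± 0.19, adjusted p = 0.00437) than in WT. Its call in WT-v was lost without WT replicate 1 (-0.58) and with scaling to the median (-0.42). A second, dimmer probe of PFKFB3 was called higher in DoxR (0.69) but not in DoxR-v (0.43). PFKFB4, by contrast, measured 6.75, 6.94 and 6.73 in DoxR-v, 5.67, 5.82 and 5.27 in DoxR, 6.76, 7.37 and 7.11 in WT-v and 8.67, 7.15 and 7.56 in WT, and was detected on 2 of the 3 DoxR arrays and on all others. The DoxR arrays were the lowest by a wide margin, and WT replicate 1 was well above the other WT arrays. PFKFB4 was 4.62-fold lower in DoxR than in WT (-2.21 ± 0.30, adjusted p = 7.79e-05) and higher in DoxR-v than in DoxR (1.22 ± 0.30). It was also called lower in DoxR-v (-0.99) and WT-v (-0.71) than in WT, but the first call was lost without WT replicate 1 (-0.55), and the second without WT replicate 1 (-0.27), WT-v replicate 1 (-0.55) or WT-v replicate 3 (-0.73), or, with the difference still -0.71, without DoxR replicate 1 (adjusted p = 0.103) or any 1 of the DoxR-v arrays (adjusted p = 0.101 to 0.103), and both with scaling to the median (-0.51 in DoxR-v and -0.28 in WT-v).

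The glucose transporters SLC2A1 and SLC2A3 differed from each other. SLC2A3, the high-affinity neuronal transporter, measured 8.56, 8.66 and 8.47 in DoxR-v, 7.71, 7.92 and 7.87 in DoxR, 6.91, 7.33 and 7.17 in WT-v and 8.77, 8.10 and 8.12 in WT. The WT-v arrays lay below all others and the DoxR-v arrays above all DoxR arrays. SLC2A3 was 2.28-fold lower in WT-v than in WT (-1.19 ± 0.18, adjusted p = 0.00029), higher in DoxR-v than in DoxR (0.73 ± 0.18) and higher in DoxR-v than in WT-v (1.43 ± 0.18). The difference of DoxR from WT (-0.50 ± 0.18) was called without WT replicate 2 (-0.61) or WT replicate 3 (-0.60). SLC2A1, the widespread transporter, measured 9.14, 9.41 and 8.85 in DoxR-v, 9.36, 9.56 and 9.43 in DoxR, 9.61, 10.00 and 10.03 in WT-v and 10.44, 9.71 and 9.83 in WT. All DoxR-v arrays lay below all WT-v and WT arrays, with differences of -0.75 ± 0.20 from WT-v and -0.86 ± 0.20 from WT (adjusted p = 0.00603), the difference from WT not being called with scaling to the median (-0.47). The difference of DoxR from WT (-0.54) was called without WT replicate 2 (-0.68), WT replicate 3 (-0.62) or DoxR replicate 2 (-0.60).

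AK4, a mitochondrial adenylate kinase, had 4 tested probes, of which the brightest measured 8.30, 8.54 and 8.48 in DoxR-v, 7.05, 7.18 and 7.20 in DoxR, 7.33, 7.58 and 6.98 in WT-v and 8.15, 7.68 and 7.57 in WT. The DoxR-v arrays lay above all arrays of the other groups. AK4 was 2.46-fold higher in DoxR-v than in DoxR (1.30 ± 0.18, adjusted p = 8.68e-05) and 2.21-fold higher than in WT-v (1.14 ± 0.18). Relative to WT it was called higher in DoxR-v (0.64) and lower in DoxR (-0.65), the first lost without WT replicate 2 (0.58) or WT replicate 3 (0.53), and the second without WT replicate 1 (-0.48) and with scaling to the median (-0.33). The other 3 probes were called in neither of these comparisons, though 1 of them was called lower in WT-v than in WT (-1.88). In WT-v the difference from WT (-0.50) was called without WT replicate 3 (-0.62) or WT-v replicate 2 (-0.64).

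Secreted targets were lower than WT in most lines, and 4 of the 5 were called lower in each. STC1, a secreted glycoprotein that acts on calcium and phosphate, measured 7.73, 7.48 and 7.42 in DoxR-v, 7.16, 7.15 and 6.93 in DoxR, 6.63, 6.78 and 6.07 in WT-v and 9.37, 8.94 and 9.17 in WT. All arrays of DoxR-v, DoxR and WT-v lay below all WT arrays. STC1 was 3.07-fold lower in DoxR-v (-1.62 ± 0.18, adjusted p = 3.05e-05), 4.22-fold lower in DoxR (-2.08 ± 0.18, adjusted p = 1.66e-06) and 6.36-fold lower in WT-v (-2.67 ± 0.18, adjusted p = 3.98e-07). DoxR-v stayed above WT-v (1.05 ± 0.18). VEGFA, the main growth factor of blood vessels, measured 5.92, 5.93 and 5.44 in DoxR-v, 6.08, 6.43 and 5.85 in DoxR, 6.70, 7.23 and 7.15 in WT-v and 8.16, 7.65 and 7.18 in WT. All DoxR-v and DoxR arrays lay below all WT arrays, and WT-v overlapped WT. VEGFA was 3.74-fold lower in DoxR-v (-1.90 ± 0.24, adjusted p = 8.13e-05) and 2.92-fold lower in DoxR (-1.55 ± 0.24, adjusted p = 0.000235) than in WT, and lower in DoxR-v than in WT-v (-1.27 ± 0.24). Its second tested probe was called lower in the same 3 comparisons. The call in WT-v relative to WT (-0.64) was lost without WT replicate 1 (-0.39), WT replicate 2 (-0.64) or WT-v replicate 1 (-0.47), and with scaling to the median (-0.19).

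ANGPTL4, which inhibits lipoprotein lipase, measured 7.92, 8.09 and 8.32 in DoxR-v, 6.53, 6.52 and 6.44 in DoxR, 6.12, 6.67 and 6.42 in WT-v and 8.55, 7.78 and 7.81 in WT. DoxR and WT-v arrays lay below all WT arrays, while the DoxR-v arrays lay among them. Relative to WT, ANGPTL4 was 2.92-fold lower in DoxR (-1.55 ± 0.20, adjusted p = 5.58e-05) and 3.12-fold lower in WT-v (-1.64 ± 0.20, adjusted p = 7.26e-05), and DoxR-v differed by 0.06 ± 0.20. DoxR-v was thus 3.05-fold above DoxR (1.61 ± 0.20) and 3.26-fold above WT-v (1.71 ± 0.20). Its 2 other tested probes were called in none of these comparisons, with -0.53 and -0.57 in DoxR and -0.58 and -0.33 in WT-v relative to WT.

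ADM, the vasodilator adrenomedullin, measured 5.64, 6.70 and 6.49 in DoxR-v, 6.94, 6.28 and 6.52 in DoxR, 6.62, 6.75 and 6.85 in WT-v and 8.63, 7.18 and 7.10 in WT. WT replicate 1 lay far above the other WT arrays, and WT replicates 2 and 3 still lay above all arrays of the other lines. ADM was 2.56-fold lower in DoxR-v than in WT (-1.36 ± 0.36, adjusted p = 0.0121, and -0.87 without WT replicate 1). The calls in DoxR (-1.05) and WT-v (-0.89) were lost without WT replicate 1 (-0.56 and -0.40), the first also without DoxR replicate 2 (-0.90) and the second also without any 1 of the WT-v arrays (-0.95 to -0.83) and with scaling to the median (-0.46). STC2, a relative of STC1, measured 8.27, 7.67 and 8.37 in DoxR-v, 9.20, 9.36 and 9.27 in DoxR, 8.61, 8.54 and 8.33 in WT-v and 9.63, 8.72 and 8.89 in WT. The DoxR-v arrays lay below all DoxR and WT arrays, with differences of -1.18 ± 0.23 from DoxR (adjusted p = 0.00129) and -0.98 ± 0.23 from WT, the difference from WT not being called with scaling to the median (-0.56). The difference of WT-v from WT (-0.58) was called without WT replicate 2 (-0.76), WT replicate 3 (-0.68) or WT-v replicate 1 (-0.64).

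CA12, the other carbonic anhydrase of the list and a membrane enzyme that acts on pH, was detected in DoxR alone. It measured 4.43, 4.68 and 4.54 in DoxR-v, 6.87, 6.49 and 6.42 in DoxR, 4.32, 4.67 and 4.46 in WT-v and 4.57, 4.46 and 4.36 in WT. The DoxR arrays stood well above the rest, all of which were at background. CA12 was at least 2.27-fold higher in DoxR than in WT (adjusted p = 1.81e-07) and at least 2.45-fold lower in DoxR-v than in DoxR (adjusted p = 2.92e-07). For these bounds the bright group's mean was compared with the lowest level at which any probe was detected in the dim group.

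Among genes of mitophagy and stress, NDRG1 was called lower in all 3 lines relative to WT. NDRG1, a stress-responsive gene induced by hypoxia, measured 4.68, 4.53 and 5.30 in DoxR-v, 5.43, 5.36 and 5.71 in DoxR, 4.78, 4.70 and 4.53 in WT-v and 8.99, 6.90 and 7.29 in WT. All WT arrays lay above all others, WT replicate 1 far above. NDRG1 was detected on all WT and DoxR arrays, on 1 DoxR-v array and on no WT-v array. It was lower in DoxR-v, by a measured log2 difference of -2.89 ± 0.40 (adjusted p = 0.000143) for which no fold is given because 2 of the 3 arrays were below detection, 4.68-fold lower in DoxR (-2.23 ± 0.40, adjusted p = 0.00062) and at least 5.68-fold lower in WT-v (adjusted p = 0.000101) than in WT. Without WT replicate 1 the log2 differences were -2.27 in DoxR-v and -1.61 in DoxR, NDRG1 was at least 3.66-fold lower in WT-v, and it was then also called lower in DoxR-v than in DoxR (-0.66, beside -0.66 ± 0.40 with all arrays).

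DDIT4 and ANKRD37 were lower in both resistant lines. DDIT4, which restrains mTOR signalling, measured 9.81, 9.81 and 9.97 in DoxR-v, 9.85, 9.65 and 9.78 in DoxR, 10.34, 9.99 and 10.48 in WT-v and 11.31, 10.54 and 10.59 in WT. The DoxR-v and DoxR arrays lay below all arrays of both parental groups. DDIT4 was lower in DoxR-v (-0.95 ± 0.19, adjusted p = 0.00246) and in DoxR (-1.06 ± 0.19, adjusted p = 0.000764) than in WT. The difference of WT-v from WT (-0.54) was under the fold threshold and was called without WT replicate 2 (-0.67), WT replicate 3 (-0.66) or WT-v replicate 3 (-0.65). ANKRD37, an ankyrin repeat protein, measured 5.82, 6.20 and 5.78 in DoxR-v, 6.04, 5.87 and 6.28 in DoxR, 7.15, 7.25 and 7.11 in WT-v and 7.65, 7.19 and 6.69 in WT. Both resistant lines again lay below both parental groups on all arrays. ANKRD37 was 2.37-fold lower in DoxR-v (-1.25 ± 0.21, adjusted p = 0.000646) and 2.16-fold lower in DoxR (-1.11 ± 0.21, adjusted p = 0.000916) than in WT, and lower in DoxR-v than in WT-v (-1.24 ± 0.21), while WT-v and WT differed by -0.01 ± 0.21.

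The mitophagy receptors BNIP3 and BNIP3L differed. BNIP3 measured 11.31, 11.40 and 11.28 in DoxR-v, 11.19, 11.30 and 11.22 in DoxR, 10.66, 10.88 and 10.46 in WT-v and 12.02, 11.28 and 11.58 in WT. The WT-v arrays lay below all others. BNIP3 was 1.95-fold lower in WT-v than in WT (-0.96 ± 0.17, adjusted p = 0.00102) and higher in DoxR-v than in WT-v (0.66 ± 0.17), which was not called without WT-v replicate 3 (0.56). BNIP3L measured 8.44, 8.57 and 7.99 in DoxR-v, 8.73, 8.65 and 8.53 in DoxR, 9.14, 9.34 and 9.03 in WT-v and 8.84, 8.52 and 8.91 in WT. Here the WT-v arrays were the highest, and DoxR-v lay below WT-v (difference -0.84 ± 0.17, adjusted p = 0.00197). A second probe of BNIP3L showed no such difference (0.02).

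Targets that act in chromatin and transcription did not move as a class. BHLHE40, a transcriptional repressor, measured 7.84, 8.10 and 7.84 in DoxR-v, 7.34, 7.55 and 7.36 in DoxR, 5.84, 6.35 and 5.93 in WT-v and 8.03, 6.77 and 7.08 in WT. All WT-v arrays lay below all others, and WT replicate 1 lay above the other WT arrays. BHLHE40 was 2.38-fold lower in WT-v than in WT (-1.25 ± 0.26, adjusted p = 0.00232) and 3.7-fold higher in DoxR-v than in WT-v (1.89 ± 0.26, adjusted p = 0.000125). Its call in DoxR-v relative to WT (0.64) was lost without WT replicate 2 (0.38), WT replicate 3 (0.53) or any 1 of the DoxR-v arrays (0.55 to 0.68), and the DoxR-v and WT arrays overlapped. MXI1, an antagonist of MYC, measured 5.82, 6.18 and 5.51 in DoxR-v, 6.06, 6.02 and 6.12 in DoxR, 5.57, 5.93 and 5.95 in WT-v and 7.18, 6.66 and 6.58 in WT. All arrays of the 3 lines lay below all WT arrays. MXI1 was lower in DoxR-v (-0.97 ± 0.19, adjusted p = 0.00217), in DoxR (-0.74 ± 0.19) and in WT-v (-0.99 ± 0.19), the DoxR call being lost without WT replicate 1 (-0.55). With scaling to the median MXI1 was called in none of the 3 (-0.55 in DoxR-v, -0.44 in DoxR and -0.57 in WT-v).

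The histone demethylases KDM3A and KDM4B need oxygen themselves. KDM3A measured 6.15, 6.28 and 6.27 in DoxR-v, 7.25, 7.45 and 7.56 in DoxR, 6.95, 7.17 and 6.51 in WT-v and 7.07, 6.52 and 7.12 in WT. All DoxR-v arrays lay below all others and all DoxR arrays above all others. KDM3A was 2.27-fold lower in DoxR-v than in DoxR (-1.19 ± 0.19, adjusted p = 0.000312). The calls of DoxR-v against WT (-0.67) and WT-v (-0.64) were lost without WT replicate 3 (-0.56) and without WT-v replicate 2 (-0.50), and the first with scaling to the median (-0.23). DoxR exceeded WT by 0.51, which was called without WT replicate 1 (0.60), WT replicate 3 (0.62) or DoxR replicate 1 (0.60). KDM4B ranged from 5.39 to 7.01 over the 12 arrays, and its single call, lower in DoxR-v than in WT-v (-0.71), was lost without WT-v replicate 1 (-0.68), WT-v replicate 3 (-0.40), DoxR-v replicate 1 (-0.68) or DoxR-v replicate 2 (-0.65). It was called higher in WT-v than in WT without WT-v replicate 2 (0.88, beside 0.54 with all arrays).

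Of 6 targets in collagen processing and protein folding, P4HA1 was lower in WT-v and P4HA2 in DoxR. These genes encode catalytic subunits of the prolyl hydroxylase that stabilizes collagen. P4HA1 measured 9.05, 8.93 and 9.02 in DoxR-v, 9.11, 9.10 and 8.98 in DoxR, 7.99, 8.38 and 7.74 in WT-v and 9.12, 8.68 and 8.98 in WT. The WT-v arrays lay below all others. P4HA1 was lower in WT-v than in WT (-0.89 ± 0.16, adjusted p = 0.00122) and higher in DoxR-v than in WT-v (0.96 ± 0.16), and the call against WT was lost with scaling to the median (-0.48). P4HA2 measured 7.57, 7.81 and 7.17 in DoxR-v, 6.51, 6.60 and 6.26 in DoxR, 7.38, 7.39 and 7.47 in WT-v and 8.35, 7.56 and 7.67 in WT. The DoxR arrays lay below all others. P4HA2 was 2.64-fold lower in DoxR than in WT (-1.40 ± 0.21, adjusted p = 0.000139) and 2.09-fold higher in DoxR-v than in DoxR (1.06 ± 0.21). Its 2 other tested probes were also lower in DoxR than in WT (-0.59 and -1.69), while on the brightest probe WT-v differed from WT by -0.45, which was called without WT replicate 2 (-0.60). ERO1A, which forms disulphide bonds in the endoplasmic reticulum, measured 8.90, 8.99 and 8.69 in DoxR-v, 8.59, 8.33 and 8.27 in DoxR, 9.24, 9.04 and 9.0 in WT-v and 9.20, 9.06 and 9.26 in WT. It was lower in DoxR than in WT (-0.78 ± 0.13, adjusted p = 0.000497), with all DoxR arrays below all others, but not called with scaling to the median (-0.50).

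The lysyl hydroxylases and LOX completed the class. PLOD1, a lysyl hydroxylase of collagen, measured 9.58, 9.86 and 9.17 in DoxR-v, 10.37, 10.42 and 10.36 in DoxR, 9.69, 9.89 and 9.84 in WT-v and 10.43, 9.93 and 9.70 in WT. It was lower in DoxR-v than in DoxR (-0.84 ± 0.19, adjusted p = 0.00434), where the groups did not overlap, and its difference from WT in DoxR-v (-0.48) was called without WT replicate 3 (-0.64) or DoxR-v replicate 2 (-0.64). PLOD2, a further lysyl hydroxylase, measured 4.71, 4.64 and 4.50 in DoxR-v, 4.53, 5.20 and 5.23 in DoxR, 5.28, 5.45 and 4.94 in WT-v and 4.55, 4.89 and 4.55 in WT and was detected on 2 WT-v arrays alone. It passed as lower in DoxR-v than in WT-v (adjusted p = 0.0317), a call that was lost without WT-v replicate 1, WT-v replicate 2 or DoxR-v replicate 3, with measured differences of -0.57, -0.49 and -0.54 beside -0.60 with all arrays, and it was called higher in WT-v than in WT without WT replicate 2 (0.69, beside 0.56). LOX, which crosslinks collagen, measured 5.32, 6.01 and 5.68 in DoxR-v, 5.06, 4.81 and 4.72 in DoxR, 5.13, 5.14 and 5.19 in WT-v and 4.54, 4.51 and 4.52 in WT and was detected on 2 DoxR-v arrays alone. All DoxR-v arrays lay above all others, and LOX was at least 1.2-fold higher in DoxR-v than in WT (adjusted p = 0.000162) and at least 1.31-fold higher than in DoxR (adjusted p = 0.00154). In WT-v the probe passed the thresholds against WT (adjusted p = 0.00914), with both groups below detection, so that no fold is given. The measured difference of DoxR-v from WT-v (0.52) was called without DoxR-v replicate 1 (0.70).

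Direct comparison of the resistant lines gave 7 members higher and 5 lower in DoxR-v than in DoxR, beside 28.2% of all genes called, and 17 of 34 members did not overlap (56.6% of all genes). Higher were EPAS1, SLC2A3, PFKFB4, AK4, ANGPTL4, P4HA2 and LOX, and lower were ARNT, STC2, CA12, KDM3A and PLOD1. Of these 12 calls, 11 held with each of the 12 arrays left out in turn, and that of ARNT did not. Between DoxR-v and WT-v 10 members were higher and 7 lower, beside 24.2% of all genes called, with 21 of 34 members not overlapping (47.9% of all genes). Of those 17 calls 12 held with each array left out, among them higher PFKFB3 (2.89 ± 0.19), BHLHE40, ANGPTL4, SLC2A3, EGLN3, AK4, STC1 and P4HA1 and lower VEGFA, ANKRD37, BNIP3L and SLC2A1. With scaling to the median the counts were 11 higher and 5 lower for DoxR-v against DoxR, and 10 higher and 7 lower for DoxR-v against WT-v.

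Whether vorinostat went with unequal differences in resistant and in parental cells was tested as the interaction, the log2 difference of DoxR-v from DoxR minus that of WT-v from WT. Each group was 1 line, and DoxR-v and DoxR were selected separately. Exposure to vorinostat therefore cannot be told apart from other differences between the lines. Of 22 called members the interaction was above 0 for 15 and below 0 for 7, beside 42.1% of all genes called (20.2% above and 21.9% below). The median over the members was 0.41, beside -0.03 over all genes tested. Counts were 12 and 8 without WT replicate 1 and 11 and 9 with scaling to the median. ANGPTL4 had an interaction of 3.25 ± 0.29 (adjusted p = 2.54e-06), with 1.61 among resistant and -1.64 among parental cells. The glucose transporter SLC2A3 likewise differed in sign, with 0.73 among resistant and -1.19 among parental cells (1.92 ± 0.25, adjusted p = 7.24e-05). For STC1 the differences were 0.46 and -2.67 (3.13 ± 0.26, adjusted p = 1.44e-06), and for AK4 1.30 and -0.50 (1.80 ± 0.25, adjusted p = 0.00012). PFKFB4, P4HA2 and BHLHE40 had interactions of 1.93, 1.51 and 1.76, and those of EGLN3, BNIP3, PFKFB3 and P4HA1 were 1.33, 1.05, 1.05 and 0.83. NDRG1 had 2.40 (1.78 without WT replicate 1). All interactions are those of the brightest probe of a gene, and other probes, some of which disagree, are not given for them.

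Below 0, CA12 had an interaction of -2.07 (adjusted p = 8.45e-06), KDM3A -1.16, ARNT -1.11 and PLOD2 -0.93. The interactions of CA12, PLOD2 and NDRG1 rest in part on groups below detection and are no bounds. Of the 22 calls, 16 held with each array left out. That of EPAS1 (1.05 ± 0.43, adjusted p = 0.0727) was lost without WT replicate 1 (0.70), WT-v replicate 1 (0.96), WT-v replicate 2 (1.06), DoxR replicate 3 (0.93) or DoxR-v replicate 2 (0.74). MXI1 (0.76) was lost without WT replicate 1 (0.57), WT-v replicate 1 (0.64) or DoxR-v replicate 2 (0.58). BNIP3L (-0.72) was lost without DoxR-v replicate 3 (-0.54). EGLN1 (-0.61) fell under the fold threshold without WT replicate 3 (-0.56), WT-v replicate 1 (-0.55), WT-v replicate 2 (-0.56), DoxR replicate 3 (-0.55) or DoxR-v replicate 3 (-0.58). DDIT4 (0.65) was called without WT replicate 2 or WT replicate 3 but lost without any 1 of the other 10 arrays (0.40 to 0.69), and PLOD1 (-0.63) was called without WT replicate 1 or DoxR-v replicate 2 but lost without any 1 of the other 10 (-0.69 to -0.45). Interactions not called with all arrays were called for STC2 without WT replicate 1 (-0.87), HIF1A without WT replicate 3 (-0.63), KDM4B without WT-v replicate 2 (-1.13) or DoxR replicate 2 (-1.06), and ERO1A without WT replicate 2, WT-v replicate 1, DoxR replicate 1 or DoxR-v replicate 3 (0.59 to 0.64).

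**Figure D5:**
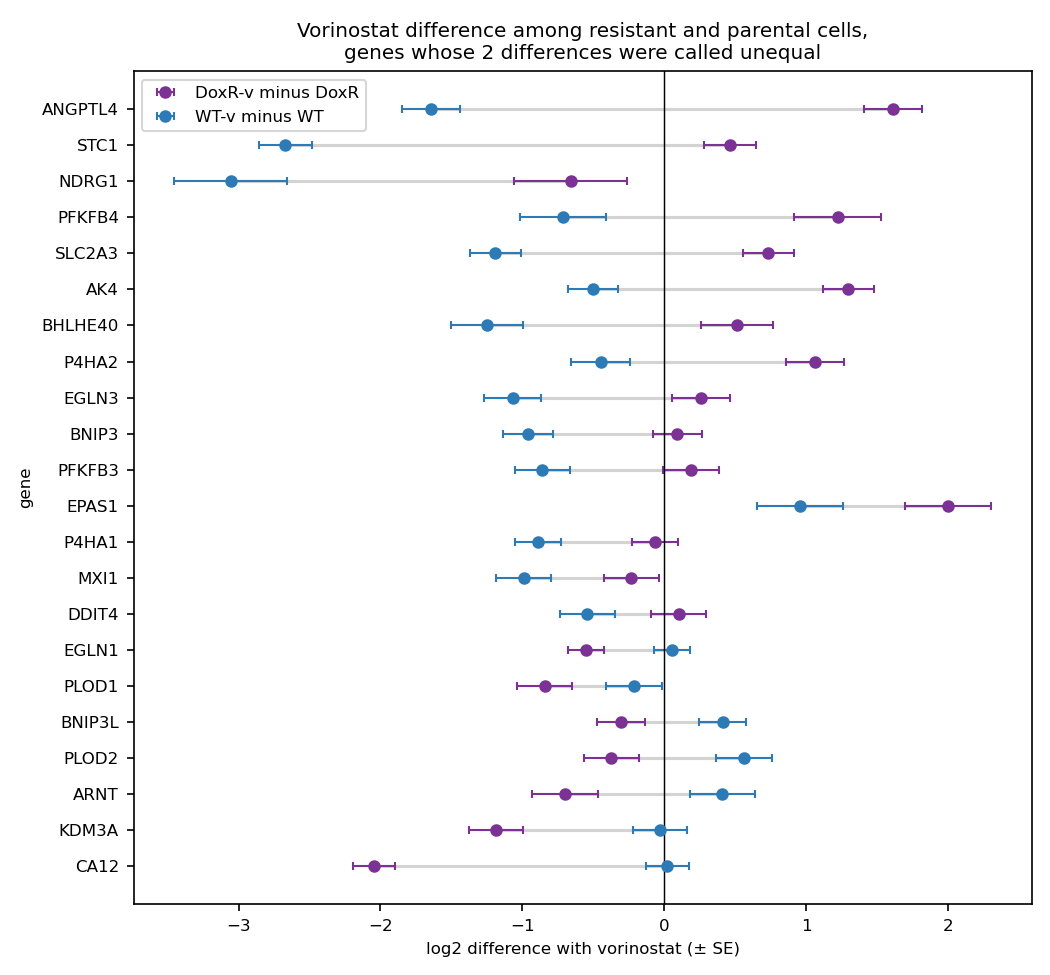
For the 22 genes with a called interaction, the log2 difference with vorinostat (± SE of the limma fit over 3 arrays per group) is drawn among resistant cells in purple and among parental cells in blue, ordered by the gap. ANGPTL4 lies above 0 among resistant cells (1.61) and below 0 among parental cells (-1.64), and the points of NDRG1, CA12 and PLOD2 are drawn at measured values although some of their groups were below detection.

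Beyond the members, 17 of 18 other regulators of the pathway and 36 of 47 other known HIF targets were tested, from lists that hold no member. Over all genes tested, 5506 of 12093 had an unadjusted p below 0.05 in DoxR-v and 5747 in WT-v relative to WT, and the percentages called in each comparison are those given above for the members. In DoxR-v relative to WT 4 regulators were higher and 0 lower (9 of 17 had an unadjusted p below 0.05), and 7 other targets were higher and 6 lower. In DoxR 3 and 1 regulators and 7 and 7 other targets were higher and lower, and in WT-v 5 and 0 regulators (9 of 17 at an unadjusted p below 0.05) and 5 and 4 other targets. In DoxR-v relative to DoxR 2 and 3 regulators and 7 and 4 other targets were higher and lower, relative to WT-v 1 and 6 regulators and 6 and 9 other targets, and the interaction was above and below 0 for 3 and 6 regulators and 11 and 8 other targets. With scaling to the median the other targets higher and lower numbered 14 and 5 in DoxR-v, 10 and 6 in DoxR and 15 and 4 in WT-v relative to WT, 8 and 4 in DoxR-v relative to DoxR, 7 and 8 relative to WT-v, and 10 and 13 above and below 0 in the interaction. That scaling raised the median of all probes in DoxR-v, DoxR and WT-v relative to WT. The percentages of all genes called do not apply to it, so that these counts are not read as particular to HIF targets. IGFBP3, which binds insulin-like growth factors, measured 7.38, 6.70 and 6.76 in DoxR-v, 8.74, 8.86 and 8.80 in DoxR, 9.25, 9.31 and 9.36 in WT-v and 4.62, 5.20 and 5.16 in WT, with the probe undetected on all WT arrays. It was at least 2.9-fold higher in DoxR-v (adjusted p = 7.47e-06), at least 10.5-fold higher in DoxR (adjusted p = 7.06e-09) and at least 14.9-fold higher in WT-v (adjusted p = 5.67e-09) than in WT, and lower in DoxR-v than in DoxR (-1.85 ± 0.19) and WT-v (-2.36 ± 0.19). CXCR4, a chemokine receptor, was detected in WT alone, with 4.44, 4.36 and 4.36 in DoxR-v, 4.84, 4.82 and 4.88 in DoxR, 4.49, 4.28 and 4.40 in WT-v and 6.66, 6.37 and 6.57 in WT. It was at least 2.35-fold lower in DoxR-v (adjusted p = 4.18e-08), at least 2.38-fold lower in DoxR (adjusted p = 2.04e-07) and at least 2.49-fold lower in WT-v (adjusted p = 5.35e-08).

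Other genes named by smallest adjusted p split by line. The phosphofructokinase PFKP was higher in DoxR-v (1.71 ± 0.18) and DoxR (1.93 ± 0.18) than in WT and in DoxR-v than in WT-v (1.34 ± 0.18), and the glycogen-targeting subunit PPP1R3C was lower in DoxR-v (-2.38 ± 0.24), DoxR (-2.58 ± 0.24) and WT-v (-1.41 ± 0.24) than in WT. The haem oxygenase HMOX1 was higher in DoxR-v than in WT (1.98 ± 0.22) and DoxR (2.31 ± 0.22), with the probe detected on 1 of 3 WT and 1 of 3 DoxR arrays, and the lipoprotein receptor VLDLR lower in DoxR-v than in WT (-1.41 ± 0.16), DoxR (-1.24 ± 0.16) and WT-v (-2.49 ± 0.16). In DoxR the deacetylase SIRT1 was higher (1.19 ± 0.15) and the aldolase ALDOC lower (-2.01 ± 0.21) than in WT. The chaperone subunit VBP1, which binds VHL, was lower in DoxR-v than in DoxR (-0.84 ± 0.13). CITED2, which competes with HIF for coactivators, measured 7.89, 7.84 and 7.95 in DoxR-v, 6.30, 6.43 and 6.44 in DoxR, 7.92, 8.12 and 8.29 in WT-v and 6.81, 6.72 and 6.87 in WT. Both lines exposed to vorinostat lay above both that were not, with differences of 1.5 ± 0.12 for DoxR-v over DoxR (adjusted p = 9.87e-07) and 1.31 ± 0.12 for WT-v over WT (adjusted p = 7.57e-06).

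ARNT2, the neuronal relative of ARNT, measured 5.70, 5.24 and 5.40 in DoxR-v, 6.21, 6.04 and 6.23 in DoxR, 7.12, 7.05 and 7.53 in WT-v and 4.52, 5.08 and 4.87 in WT. It was undetected in WT, at least 3.54-fold higher in WT-v than in WT (adjusted p = 8.05e-07), and lower in DoxR-v than in WT-v (-1.79 ± 0.18, adjusted p = 9.9e-06). PGF, a relative of VEGFA, measured 7.56, 7.66 and 7.46 in DoxR-v, 6.26, 6.11 and 6.04 in DoxR, 5.55, 5.45 and 5.82 in WT-v and 7.01, 7.11 and 7.04 in WT. It was lower in WT-v than in WT (-1.45 ± 0.13) and higher in DoxR-v than in DoxR (1.42 ± 0.13) and WT-v (1.95 ± 0.13), and its interaction was 2.87 ± 0.18 (adjusted p = 1.11e-07). The neuronal enolase ENO2 was higher in DoxR-v than in WT-v (1.26 ± 0.14), with an interaction of 1.47 ± 0.20. Interactions below 0 were led by IGFBP3 (-6.16), ARNT2 (-3.12) and VLDLR (-2.32), and that of CXCR4 was 1.69. The interactions of IGFBP3, ARNT2 and CXCR4 rest on groups below detection and are no bounds.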

How the data were processed

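Total RNA of 12 SK-N-SH samples in 4 groups of 3 was measured on Illumina HumanHT-12 v4 expression beadchips. The authors deposited the non-normalized probe intensity of each array on a linear scale, with a detection p-value for each probe and array against negative control probes. The authors also deposited a normalized intensity table, in which all arrays share 1 distribution, and it was used as an alternative. Per the labels it came from lumi 2.13.3 and R 3.0.1, and its earlier transformation is unknown.

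The non-normalized intensities were background corrected (normexp, offset 16, with the negative controls inferred through the detection p-values), quantile normalized and log2 transformed (neqc in limma 3.58.1, R 4.3.3). Of 47323 probes, 21609 reached a detection p-value under 0.01 on 1 or more arrays and were tested. All 12 arrays entered 1 linear model with group means, with empirical Bayes moderation, and p-values were adjusted by Benjamini-Hochberg over all tested probes. A call needed a fold change above 1.5 together with an adjusted p below 0.1. The number of arrays limits the precision.

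Gene names came from the platform annotation, updated through gene identifiers for 30074 of the 30113 probes with 1 symbol. A total of 8 probes had several symbols and 17202 had none, and these were not named. For each gene the brightest tested probe on average stood for it, which gave 12093 genes. Other probes are given for several genes where they disagree in a comparison between groups, but not for the interaction. Where no array of a group detected a probe, the lowest signal among detected probes of each array served as that group's level, unless the probe's own was higher, and the fold is given as a bound.

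All members were described, and per-array values were given for subunits, sensors, VHL and called targets. From the other pathway lists the 3 genes with the smallest adjusted p in each direction and comparison were named. Members and lists were chosen with earlier results of these data known. Alternatives were no background correction, median scaling, the deposited normalized values, other filters on dim probes, the mean of all probes, only the groups compared, array weights, a replicate block and each array left out. The model was tested on simulated data. Promoter windows came from RefSeq for GRCh38.p14. Chip position and scan batch are not given in the sources used here, and no batch term was fitted.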

Additional observations from a re-analysis of the deposited data

Results flagged for a closer look

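The log2 difference with vorinostat among resistant cells (DoxR-v minus DoxR) differed from that among parental cells (WT-v minus WT) for 22 of the 34 members tested, by the interaction term of the limma fit, where 42.1% of all genes did. The difference of the differences was 3.25 for ANGPTL4, 3.13 for STC1, 2.40 for NDRG1, 1.93 for PFKFB4, 1.92 for SLC2A3, 1.80 for AK4, 1.76 for BHLHE40 and 1.51 for P4HA2. It was 1.33 for EGLN3, 1.05 for BNIP3, 1.05 for PFKFB3, 1.05 for EPAS1, 0.83 for P4HA1, 0.76 for MXI1 and 0.65 for DDIT4. Negative values were -2.07 for CA12, -1.16 for KDM3A, -1.11 for ARNT, -0.93 for PLOD2, -0.72 for BNIP3L, -0.63 for PLOD1 and -0.61 for EGLN1. Among the other pathway genes named, the same term was 2.87 for PGF, 1.69 for CXCR4, 1.47 for ENO2, -2.32 for VLDLR, -3.12 for ARNT2 and -6.16 for IGFBP3. NDRG1 had 1.78 without WT replicate 1, and the values of NDRG1, CA12, PLOD2, CXCR4, ARNT2 and IGFBP3 rest in part on groups below detection. All values are those of the brightest probe of a gene, and other probes are not given for this term. Each group was 1 line, so that vorinostat cannot be told apart from other differences between the lines. The arrays whose omission ended a call of a member are given with the interaction in the report.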

How the results depend on the processing

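No call of a named gene changed direction under any alternative. With the deposited normalized values 8 members were called in DoxR-v, 8 in DoxR and 7 in WT-v relative to WT, 5 in DoxR-v relative to DoxR, 10 in DoxR-v relative to WT-v and 11 in the interaction, in place of 17, 15, 16, 12, 17 and 22. Without background correction 11 were called in DoxR-v and 10 in WT-v relative to WT. Shares of all genes called under these alternatives are not given here. Leaving out 1 array at a time gave 14 to 17, 13 to 17, 13 to 19, 11 to 15, 14 to 17 and 18 to 22 calls in the same order of comparisons. Where this left 1 group with 2 arrays, the spread was pooled over all groups. Over the 47 genes named, 3238 of 3384 such values kept their side of the thresholds, 101 lost a call and 45 gained one, while scaling to the median ended 21 calls and added 20 of 282 and the deposited values ended 74. Keeping probes detected on at least 3 arrays changed none of the 270 values that remained. LOX and PLOD2, detected on fewer arrays than that, were removed by this filter, and their calls with them. With a replicate block, 17, 15, 15, 12, 17 and 23 members were called, PFKFB4 in WT-v being lost (adjusted p = 0.104) and KDM4B gained in the interaction (adjusted p = 0.0673). Samples of equal number did not deviate together (r from -0.325 to 0.167 over 18 pairs, 1 above 0.1, against -0.191 to 0.273 for other pairs), so the numbers were not taken to pair samples. Probes near background (ARNT, CA12, PLOD2, LOX and NDRG1) limit the folds that can be given. The cause of these shifts was not tested.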
